A study of Homo sapiens with 18 samples.

Results

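The 59 genes described here encode the proteins that build, cap, cut and crosslink actin filaments, from the Arp2/3 complex to the proteins that tie filaments to the plasma membrane. They were taken by gene symbol from a list of such proteins, and 59 of the 60683 gene rows of each count table carried a listed symbol.

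Actin filaments grow from monomers that profilins and thymosins hold in reserve. The Arp2/3 complex, switched on by WASP and WAVE proteins and by cortactin, starts branches on existing filaments, while formins and Ena/VASP proteins start or lengthen unbranched ones. Capping proteins stop growth, cofilins and gelsolin cut filaments so that monomers return to the pool, fascin, plastins, alpha-actinins and filamin join filaments into bundles and networks, and ezrin, radixin and moesin link them to the membrane. In epithelial cells this machinery shapes microvilli, junctions and the leading edge of migrating cells.

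Poly(A)-selected RNA was sequenced from HCT-116 cells, a long-established line from a human colorectal carcinoma, in 18 libraries that formed 6 groups of 3 and 2 tables. In the ACTB table, all 9 libraries came from cells labelled Actin KO: ACTB-mut libraries were labelled as over-expressing mutant actin (H73A in the series design, a change at the histidine that SETD3 methylates), ACTB-WT libraries as over-expressing wild-type actin, and Actin KO libraries carried an empty construct. In the SETD3 table, the lines KO1 and KO2, both labelled SETD3 knockout, stood beside a SETD3 control (CT). The labels gave neither the construct's promoter, nor the number of clones behind a group, nor whether the 3 replicates were separate cultures, so p-values measure the spread between these libraries.

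The libraries held 3389586 to 11652967 counts. RNA of ACTB itself stood at 32 to 47.1 CPM (counts scaled to library size) in ACTB-mut libraries and 23.2 to 31.0 CPM in ACTB-WT libraries, against 14.9 to 24.9 CPM in Actin KO libraries. It stood at 662 to 1460 CPM in the SETD3 table, which was scaled separately. The labels do not say whether RNA of the constructs would be counted under ACTB, so these values do not show how much was made from them, and over-expression is given as labelled. SETD3 RNA stood at 6.34 to 17.1 CPM in KO1 and 15.6 to 27.7 CPM in KO2, against 14.0 to 36.0 CPM in CT, and RNA level does not show whether a knockout line makes the protein. The libraries CT replicate 2 and KO2 replicate 1, the 2 shallowest of the SETD3 table with 4898827 and 3389586 counts, stood apart: the SD over genes of their log2 departures from the mean of the table was 0.472 and 0.608, against 0.302 to 0.356 in the other 7. KO2 replicate 3 carried the cell line label HCT-117 and was kept in its group. The 6 epithelial markers summed to 8100 to 13600 CPM, although CDH1, the gene of E-cadherin, did not pass 10.7 CPM, and none of the fibroblast, blood and endothelial lists summed to more than 15.3 CPM in any library.

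Levels per length (TPM, computed from the counts and the length of each gene's principal transcripts) spanned more than 4 orders of magnitude among the members. The monomer reserve and the filament cutters dominated: TMSB10, a thymosin that sequesters monomers, averaged 5369 TPM over the 18 libraries, CFL1, the non-muscle cofilin, 2867 TPM, and PFN1, the main profilin, 1134 TPM. The lowest members of the monomer-binding and turnover groups were TWF1, a twinfilin, at 3.32 TPM and SSH1, a phosphatase that reactivates cofilin, at 1.62 TPM.

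Among the nucleators, the Arp2/3 subunits ran from ARPC1B at 237.8 TPM to the actin-related subunit ACTR2 at 3.38 TPM. The principal transcripts of ARPC1B have 58.6% GC and a length of 1560 bases, and those of ACTR2 38.1% and 3861 bases. Whether GC content or the single length used per gene plays a part in such levels was not tested. BRK1, the smallest WAVE complex subunit, led the activators at 61.5 TPM, and WASL, which encodes N-WASP, was lowest at 1.28 TPM. Formins lay lower, between DIAPH1 at 26 TPM and FMNL3 at 0.135 TPM. Of the Ena/VASP proteins VASP was highest at 35.4 TPM and ENAH lowest at 1.79 TPM.

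CAPZB, the beta subunit of capping protein, averaged 208.5 TPM, and SCIN, a gelsolin relative, 0.467 TPM. The crosslinkers ran from ACTN4, an alpha-actinin, at 212.6 TPM to the plastin PLS1 at 0.275 TPM. Ezrin (EZR) averaged 306.8 TPM and made up 90.7% to 95.8% of the summed TPM of the 3 membrane linkers in the ACTB table, whereas moesin (MSN), the lowest, averaged 10.9 TPM. The members WASL, WASF1, ABI1, DIAPH2, FMNL2, FMNL3, TWF1, PLS1 and PLS3 were listed at 0 in at least 1 library. These are levels of a culture's RNA, in which fewer cells expressing a gene and less RNA per cell cannot be told apart.

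**Figure D1:**
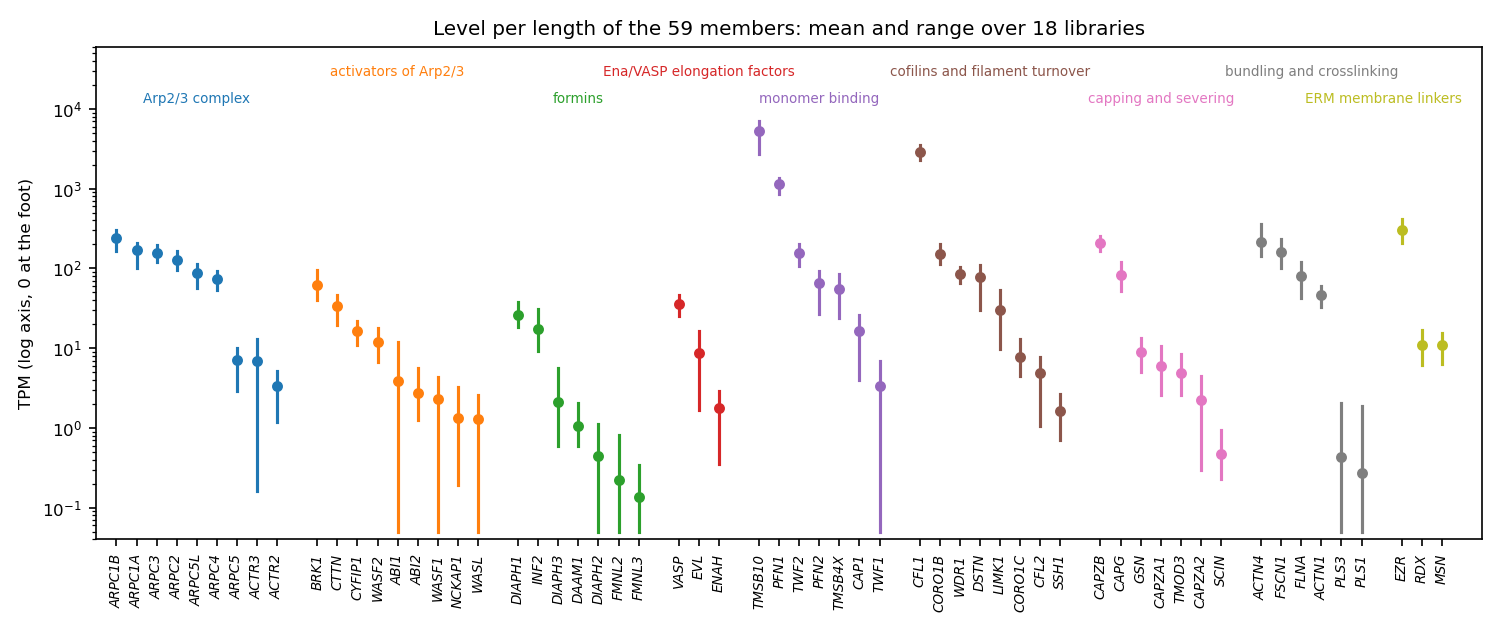
Level per length of each of the 59 members in TPM on a log axis, grouped by role; points are means over 18 libraries and lines run from the lowest to the highest library, with libraries at 0 drawn at the foot of the axis. TMSB10 at 5369 TPM and CFL1 at 2867 TPM stand above all other members, and FMNL3 at 0.135 TPM stands lowest.

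A filter on low counts left 56 members to test in the ACTB table (all but FMNL2, PLS1 and PLS3) and 58 in the SETD3 table (all but PLS1). Tests were edgeR quasi-likelihood F tests over all genes that passed, 13846 SETD3-table genes and 13882 ACTB-table genes. The p-values of all these genes were adjusted together by Benjamini and Hochberg's method, and genes below 0.05 after adjustment are named as called. The members' median biological coefficient of variation was 31.8% among SETD3 libraries and 21.3% among ACTB libraries. Over all tested genes it was 53.9% and 42.6%, and over genes above 100 CPM it was 22.7% and 15.4%. The background shares given below are of all tested genes, which varied more than the members, and were not matched for level or spread. The members and the further list described below were chosen with earlier results of these data known, so their shares are not independent of these data.

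ACTB-mut libraries were first compared with Actin KO libraries. The actin crosslinkers, FLNA and FSCN1, the elongation factor EVL and the branch stabiliser CTTN had lower RNA in ACTB-mut libraries, and no member was called higher. These 4 calls were 7.14% of the 56 members tested. Over all genes 0.598% were called lower, 0.324% higher and 0.922% in either direction. At an unadjusted p below 0.05 the members numbered 10, all lower (17.9%, against 11.5% of all genes in either direction).

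EVL, the Ena/VASP-like protein that speeds elongation at the barbed end, stood at 3.32, 5.09 and 2.79 CPM in ACTB-mut libraries, against 15.1, 12.6 and 15.5 CPM in Actin KO libraries. Its log2 fold change was -1.94 ± 0.38 (SE, n = 3 each; edgeR adjusted p = 0.0222), and the ACTB-mut values rest on 111 counts in all. The groups did not overlap. Within the Ena/VASP family EVL made up 5.17%, 10.2% and 5.13% of the summed TPM in ACTB-mut libraries, against 23.9%, 19.1% and 17.9% in Actin KO libraries, while the shares of VASP were 89.1%, 85.1% and 89.5% against 72.1%, 80.1% and 79.1%. A share can rise because another member falls. VASP RNA itself overlapped between these groups and was not called (log2 fold change -0.18 ± 0.20, edgeR adjusted p = 0.829).

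FLNA, which encodes filamin A, a dimer that crosslinks filaments into orthogonal networks and anchors them to integrins, stood at 448, 307 and 505 CPM in ACTB-mut libraries, against 722, 741 and 838 CPM in Actin KO libraries. Each ACTB-mut library lay below each Actin KO library (log2 fold change -0.87 ± 0.15, edgeR adjusted p = 0.0122). FSCN1, which encodes fascin, the bundler of filopodial filaments, stood at 229.9, 268 and 239.6 CPM in ACTB-mut libraries and at 361, 344 and 343 CPM in Actin KO libraries. These groups did not overlap either, and the spread within each was narrow (-0.51 ± 0.11, edgeR adjusted p = 0.0387). All 4 crosslinkers tested had negative fold changes. The summed TPM of the 6 listed crosslinkers, the untested PLS1 and PLS3 included, was 422, 395 and 365 in ACTB-mut libraries, against 515, 536 and 604 in Actin KO libraries.

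CTTN, the gene of cortactin, which binds Arp2/3 and holds branches in place, stood at 52.9, 63.3 and 54.3 CPM in ACTB-mut libraries, against 89.8, 124.1 and 96.3 CPM in Actin KO libraries. The groups did not overlap (log2 fold change -0.86 ± 0.19, edgeR adjusted p = 0.043). Other activators also had lower means without a call: WASF2, the WAVE2 scaffold, stood at 45.0, 36.8 and 53.7 CPM in ACTB-mut libraries and at 65.8, 76.2 and 82.8 CPM in Actin KO libraries (-0.73 ± 0.21, adjusted p = 0.16). The formin INF2, which both nucleates and severs filaments, stood at 44.7, 38.0 and 36.8 CPM in ACTB-mut libraries and at 76.0, 58.8 and 87.6 CPM in Actin KO libraries (-0.90 ± 0.23, adjusted p = 0.0974). By DESeq2 both WASF2 (adjusted p = 0.0433) and INF2 (adjusted p = 0.0127) were called, but by limma-voom neither was.

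The calls differed in how much they rested on single libraries. FLNA was called in 5 of the 6 fits that left out 1 library, the exception being the fit without Actin KO replicate 3 (adjusted p = 0.0672). EVL and FSCN1 were called in 1 of 6 each, the fit without ACTB-mut replicate 2, and CTTN in none of the 6 (adjusted p 0.0639 to 0.177). By limma-voom FLNA, FSCN1 and CTTN were called and EVL was not (adjusted p = 0.0538).

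Over all tested members the median log2 fold change was -0.16, against 0.03 over all genes. Of the 56 members, 14 lay lower in each ACTB-mut library than in each Actin KO library (background 9.16%) and 1, the subunit ARPC3, lay higher (background 9.31%). Besides the members named above, the 14 were ACTN1, SSH1, PFN1, ARPC1A, ARPC1B, ARPC5L, MSN and CORO1B, a coronin that debranches Arp2/3 networks.

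**Figure D2:**
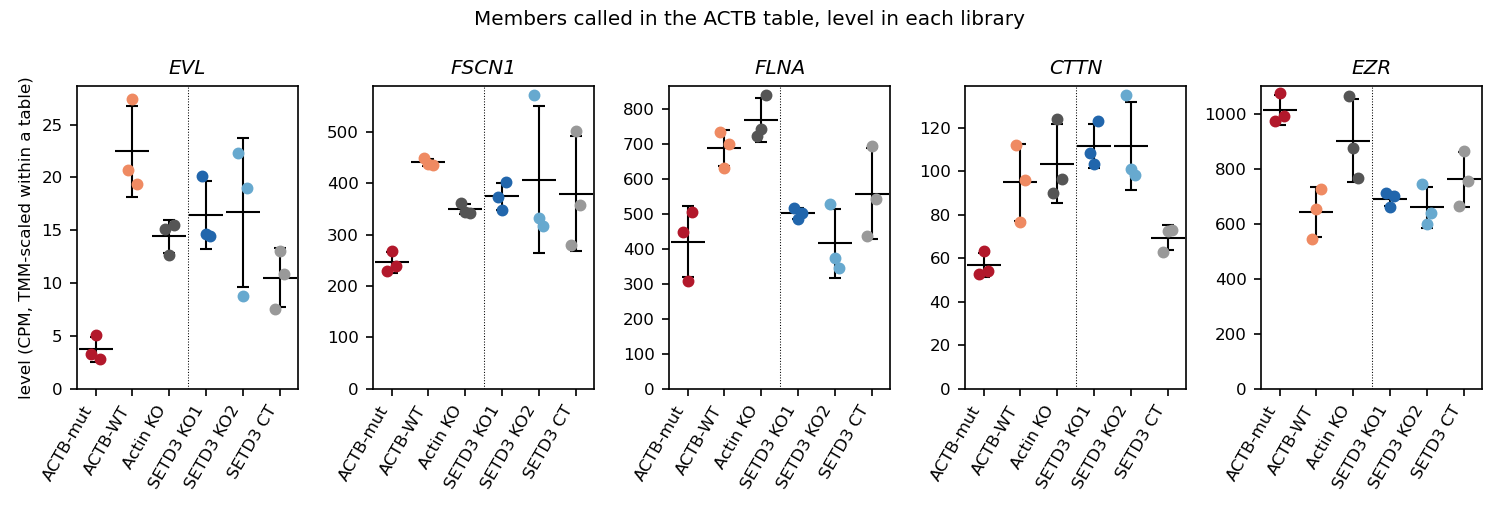
Level in CPM of the members called in the ACTB table, in each library; dots are libraries, bars are the mean ± SD of 3 libraries, and the dotted line separates the tables, which were scaled separately. EVL stands at 2.79 to 5.09 CPM in ACTB-mut libraries, below every ACTB-WT and Actin KO library, and EZR stands at 974 to 1074 CPM in ACTB-mut libraries, above every ACTB-WT library.

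ACTB-WT libraries were next compared with Actin KO libraries, both from cells labelled Actin KO. In the ACTB table an effect of a construct and a difference between clones or cultures cannot be told apart. No member was called, against 1.12% of all genes. By edgeR 11 members had an unadjusted p below 0.05 (19.6%, against 11.2% of all genes), by limma-voom 0 members were called, and by DESeq2 1 was called, EZR, which encodes ezrin. EZR stood at 545, 654 and 726 CPM in ACTB-WT libraries, against 1063, 877 and 766 CPM in Actin KO libraries (edgeR log2 fold change -0.49 ± 0.13, adjusted p = 0.112; DESeq2 adjusted p = 0.0249), and the groups did not overlap.

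The Arp2/3 subunits had 8 of 9 fold changes below 0, with a median of -0.40 against -0.01 over all genes. Their summed TPM was 767, 804 and 812 in ACTB-WT libraries, against 966, 991 and 946 in Actin KO libraries, and 849, 894 and 826 in ACTB-mut libraries lay between. ARPC1B, a subunit that sits beside the activators' binding face, stood at 235.6, 298 and 300.4 CPM in ACTB-WT libraries and at 382, 367 and 349 CPM in Actin KO libraries (-0.40 ± 0.13, adjusted p = 0.218). ARPC5L stood at 108, 128 and 88.7 CPM in ACTB-WT libraries and at 148, 157 and 151 CPM in Actin KO libraries (-0.49 ± 0.15, adjusted p = 0.189). No subunit was called in this comparison.

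The members with the largest fold changes at 20 CPM or more were GSN, RDX and ENAH. GSN, the gene of gelsolin, a calcium-activated severing protein, stood at 11.3, 16.3 and 15.0 CPM in ACTB-WT libraries, against 28.9, 24.9 and 20.8 CPM in Actin KO libraries (-0.81 ± 0.33, adjusted p = 0.345). RDX, the gene of radixin, stood at 42.1, 54.0 and 58.7 CPM in ACTB-WT libraries, against 23.6, 32.2 and 36.1 CPM in Actin KO libraries (0.75 ± 0.27, adjusted p = 0.269). Neither gene's groups overlapped, but ENAH, the Mena elongation factor, overlapped at 9.54, 24.1 and 27.4 CPM in ACTB-WT libraries and 16.9, 3.68 and 17.5 CPM in Actin KO libraries (0.69 ± 0.51, adjusted p = 0.704).

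Of the 56 members, 5 lay higher in each ACTB-WT library than in each Actin KO library (FSCN1, DSTN, RDX, CFL1 and EVL; background 7.64%) and 10 lay lower (NCKAP1, EZR, ARPC1B, ARPC2, ARPC4, ARPC5L, MSN, GSN, WASF2 and CAPZA2; background 9.08%). FSCN1 and EVL, lower in ACTB-mut than in Actin KO libraries, were at 449, 437 and 436 CPM and at 20.7, 27.4 and 19.3 CPM in ACTB-WT libraries, above all Actin KO libraries, without a call (log2 fold changes 0.34 and 0.64, adjusted p = 0.203 and 0.562). Both comparisons share the Actin KO libraries, so a high or low value there moves both.

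**Figure D3:**
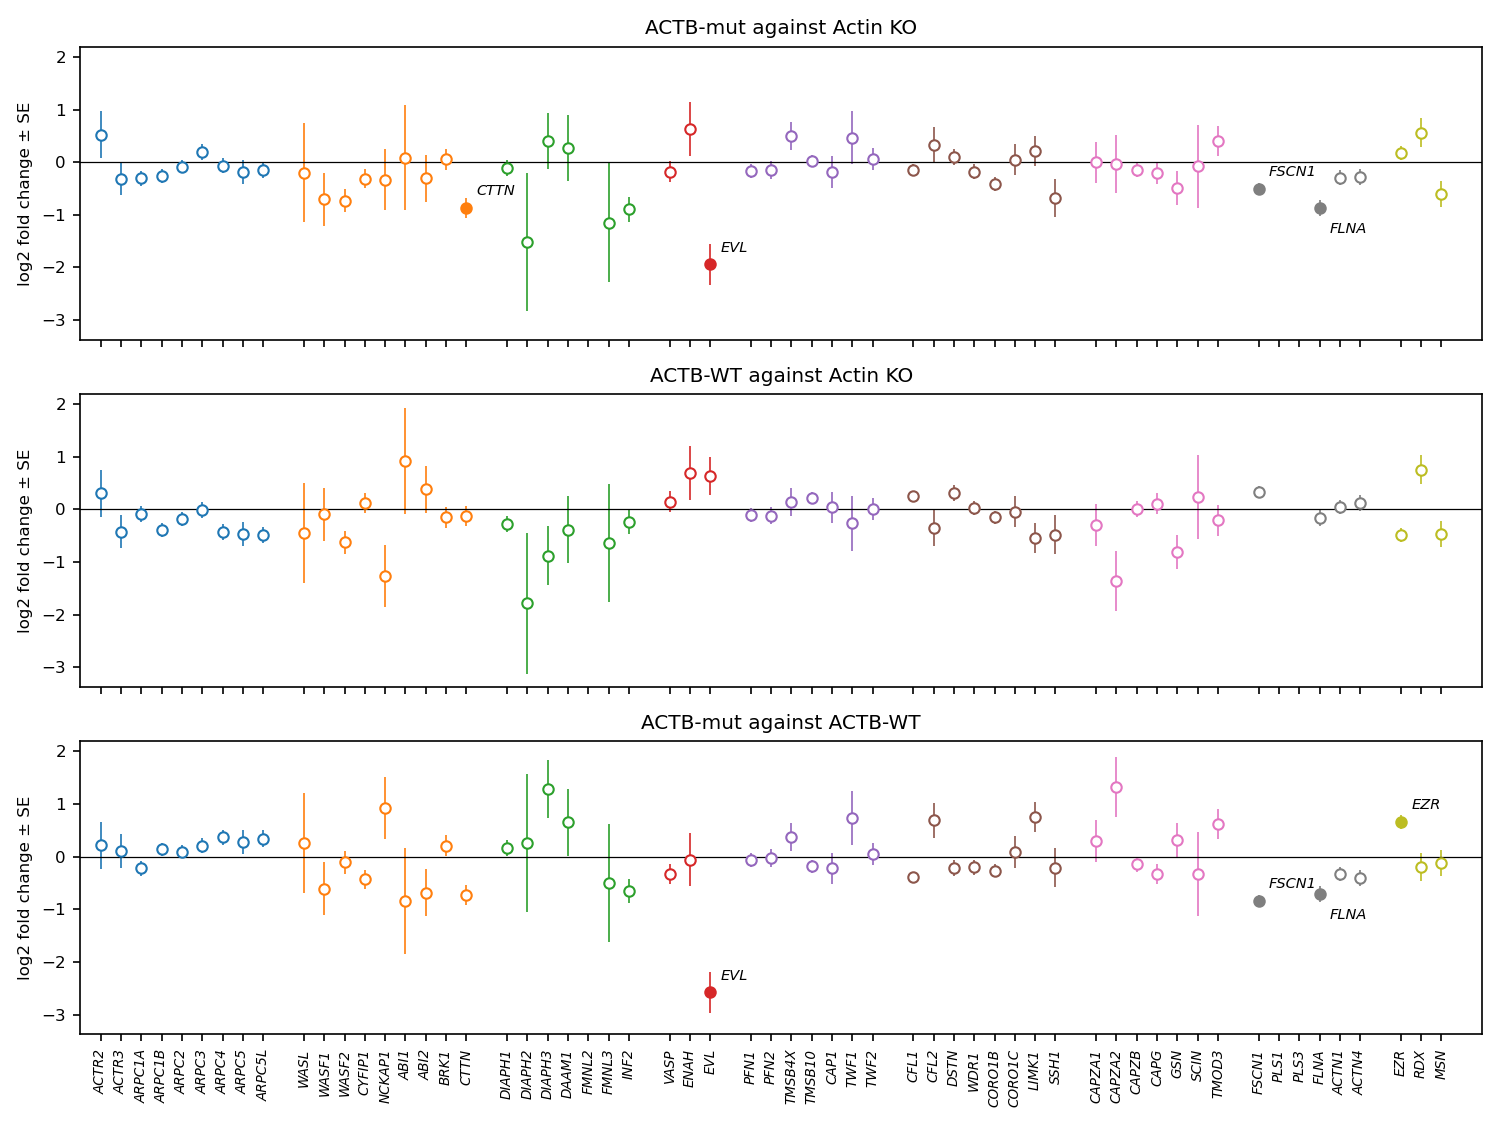
Log2 fold change ± SE of the 56 members tested in the ACTB table, coloured and ordered by role, in 3 comparisons; filled points were called at an adjusted p below 0.05 and open points were not. EVL lies at -1.94 and -2.58 in the panels with ACTB-mut first, and no point is filled for ACTB-WT against Actin KO.

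ACTB-mut libraries were then compared directly with ACTB-WT libraries. FSCN1, EVL and FLNA had lower RNA in ACTB-mut libraries and EZR had higher RNA. The 1 member called higher and 3 called lower compare with 0.634% of all genes called higher and 0.605% called lower (1.24% in either direction). At an unadjusted p below 0.05 the members numbered 16 (28.6%, against 12.0% of all genes). This fold change is also the difference between the fold changes of the constructs against the Actin KO libraries they share.

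EVL had the largest difference: the ACTB-mut values of 3.32, 5.09 and 2.79 CPM stood against 20.7, 27.4 and 19.3 CPM in ACTB-WT libraries (log2 fold change -2.58 ± 0.39, edgeR adjusted p = 0.00374). FSCN1 stood at 229.9, 268 and 239.6 CPM in ACTB-mut libraries, against 449, 437 and 436 CPM in ACTB-WT libraries (-0.84 ± 0.11, edgeR adjusted p = 0.00143). Both were called in all 6 fits that left out 1 library and in all 7 other alternatives, including those that corrected for GC content. The 3 groups of FSCN1 followed each other without overlap, ACTB-mut lowest and ACTB-WT highest.

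FLNA stood at 448, 307 and 505 CPM in ACTB-mut libraries, against 733, 630 and 700 CPM in ACTB-WT libraries (-0.71 ± 0.15, edgeR adjusted p = 0.0309). EZR stood at 974, 1074 and 990 CPM in ACTB-mut libraries, against 545, 654 and 726 CPM in ACTB-WT libraries (0.66 ± 0.13, edgeR adjusted p = 0.0215). Neither gene's groups overlapped. Each of these calls was kept in 1 of 6 fits that left out 1 library, with adjusted p up to 0.124 for FLNA and 0.108 for EZR. Ezrin made up 94.4%, 95.8% and 94.7% of the summed TPM of the membrane linkers in ACTB-mut libraries, against 90.7%, 91.3% and 92.2% in ACTB-WT libraries. In Actin KO libraries its shares were 95.0%, 94.7% and 92.7%. EZR RNA of ACTB-mut libraries overlapped that of Actin KO libraries, at 1063, 877 and 766 CPM, without a call (log2 fold change 0.17 ± 0.13, edgeR adjusted p = 0.723).

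Members without a call included LIMK1, the kinase that inactivates cofilin, at 82.2, 53.1 and 67.1 CPM in ACTB-mut libraries and 61.4, 32.9 and 26 CPM in ACTB-WT libraries, which overlapped (0.76 ± 0.29, adjusted p = 0.287). Its substrate CFL1 stood at 2915, 3948 and 3210 CPM in ACTB-mut libraries, against 4599, 4347 and 4280 CPM in ACTB-WT libraries, without overlap (-0.39 ± 0.10, adjusted p = 0.0863). CTTN, at 112, 76.7 and 95.8 CPM in ACTB-WT libraries, lay above all ACTB-mut libraries (-0.74 ± 0.19, adjusted p = 0.0803). CFL1 and CTTN passed in DESeq2, where 6 members were called, and without a filter. By limma-voom CFL1 passed as well (adjusted p = 0.0199). Of the fits that left out 1 library, only that without ACTB-mut replicate 2 called CFL1, and none called CTTN. In all, 5 of the 56 members lay higher in each ACTB-mut library than in each ACTB-WT library (background 9.93%) and 11 lay lower (background 8.14%), and the median log2 fold change was -0.06 against 0.02 over all genes.

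The upstream sequence of FLNA, EVL and EZR, the called members with a RefSeq promoter entry, is shown because these genes moved in opposite directions between the constructs. The 250 bases before each annotated start were read from RefSeq, build GRCh38.p14, 5′ to 3′ on the gene's strand: chrX:154374635-154374884 (minus strand) for FLNA, chr14:99971172-99971421 (plus strand) for EVL and chr6:158818236-158818485 (minus strand) for EZR. Capitals mark a CArG box, the motif bound by SRF, whose coactivators respond to the actin monomer pool, in FLNA (first base at -94) and an AP-1 site (TGANTCA) in EZR (first base at -56).
FLNA: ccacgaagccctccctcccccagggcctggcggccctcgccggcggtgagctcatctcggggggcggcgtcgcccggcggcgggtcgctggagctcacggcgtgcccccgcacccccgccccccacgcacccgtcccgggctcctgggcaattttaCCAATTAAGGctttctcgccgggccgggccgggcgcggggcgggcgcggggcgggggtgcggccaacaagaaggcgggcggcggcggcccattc
EVL: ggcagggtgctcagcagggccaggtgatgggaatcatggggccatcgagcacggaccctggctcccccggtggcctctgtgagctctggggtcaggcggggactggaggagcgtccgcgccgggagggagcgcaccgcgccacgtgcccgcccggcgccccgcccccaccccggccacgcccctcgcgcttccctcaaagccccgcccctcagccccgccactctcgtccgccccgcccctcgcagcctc
EZR: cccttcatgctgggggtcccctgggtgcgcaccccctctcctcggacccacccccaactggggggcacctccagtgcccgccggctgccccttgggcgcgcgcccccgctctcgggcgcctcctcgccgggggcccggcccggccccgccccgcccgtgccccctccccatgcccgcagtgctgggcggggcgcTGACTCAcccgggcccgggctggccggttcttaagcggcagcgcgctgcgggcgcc
The windows of the 3 genes are 78.4%, 76.8% and 80.8% G or C. Searching both strands of 300-base RefSeq windows (250 bases before to 50 after the start), available for 54 of the 59 members, found a CArG box in 1 member, FLNA (1.85%, against 1.29% of 27305 windows). The AP-1 site TGANTCA was found in 4, ACTN4, ARPC5, CAPG and EZR (7.41% against 7.76%), and GGAATG, a TEAD site, in 2, PFN1 and PLS1 (3.7% against 14.0%). A match is a string of letters and says nothing of binding.

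The called genes lie at chr14:99971449-100144236 on the plus strand (EVL), chr7:5592823-5606655 on the plus strand (FSCN1), chrX:154348524-154374638 on the minus strand (FLNA), chr11:70398404-70436584 on the plus strand (CTTN) and chr6:158765741-158819412 on the minus strand (EZR), in GRCh38 with GENCODE 29. None has a named pseudogene row that took counts. Fractional counts of a gene arise in RSEM where a read is not given wholly to 1 gene. They occurred in 16 of 18 libraries for EVL, in all 18 for CTTN and EZR, in 8 for FSCN1 and in 0 for FLNA.

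GC content moved with the comparisons that involve ACTB-mut libraries. Across 3828 genes of all kinds at moderate to high level, the log2 fold change of ACTB-mut against Actin KO correlated with transcript GC content at r = -0.348, and across 34 members at r = -0.445 (genes share the libraries and are not independent replicates). For ACTB-mut against ACTB-WT r was -0.268 over all genes and -0.386 over the members, and for ACTB-WT against Actin KO it was -0.026 and -0.024. Libraries of the same group differed too. A library's log2 departures from the mean of its table correlated with GC content at -0.384, -0.252 and -0.123 in ACTB-mut libraries. In Actin KO libraries r was -0.031, 0.109 and 0.366, and in ACTB-WT libraries 0.227, 0.177 and -0.062. In the SETD3 table it ran from -0.493 (KO2 replicate 3) to 0.486 (KO2 replicate 1), with 0.463 in CT replicate 2. FSCN1 and FLNA have 65.0% and 62.3% GC, EVL 56.4%, CTTN 55.2% and EZR 50.9%.

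With GC and length offsets in the fit, 1 member remained called for ACTB-mut against Actin KO, EVL (-1.85, adjusted p = 0.0345). The values of the others became -0.57 for FLNA (adjusted p = 0.112), -0.29 for FSCN1 (adjusted p = 0.38) and -0.72 for CTTN (adjusted p = 0.114). For ACTB-mut against ACTB-WT, EVL (-2.54, adjusted p = 0.00425), FSCN1 (-0.68, adjusted p = 0.008) and EZR (0.69, adjusted p = 0.0133) were called, and FLNA was not (-0.44, adjusted p = 0.23). Whether GC content plays a part in the values of FLNA, FSCN1 and CTTN beyond these fits was not tested.

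**Figure D4:**
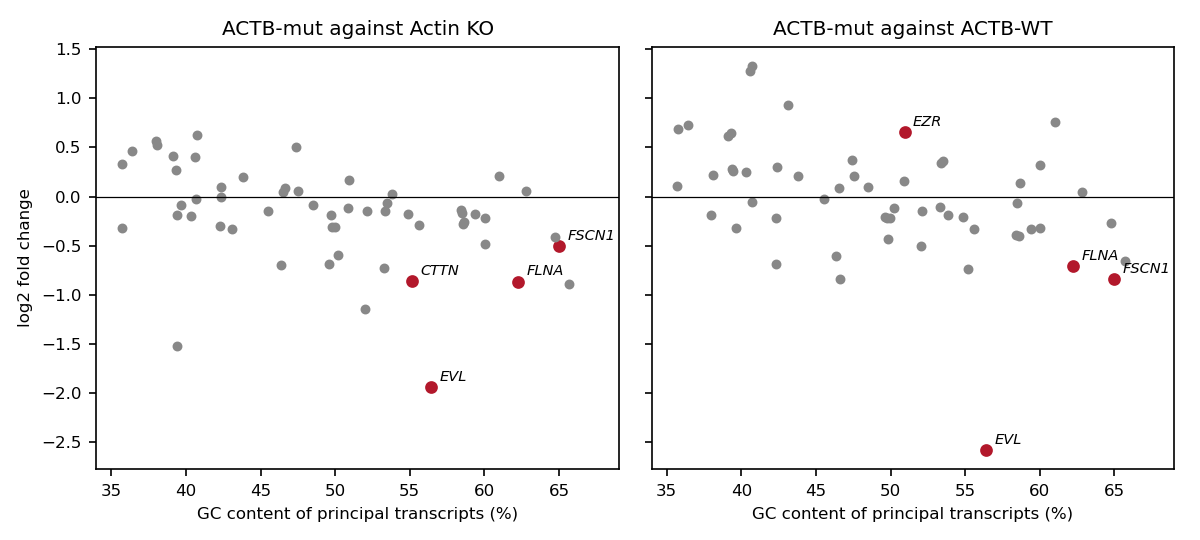
Log2 fold change of each tested member against the GC content of its principal transcripts, for ACTB-mut against Actin KO and for ACTB-mut against ACTB-WT; red points were called. Of the members with at least the GC content of LIMK1 (61.0%), TWF2 (62.8%) and LIMK1 lie above 0 in both panels. The others, INF2 (65.7%), FSCN1 (65.0%), CORO1B (64.75%) and FLNA (62.3%), lie below 0 in both panels. CAPG and GSN, next in GC content, lie below 0 against Actin KO. Against ACTB-WT, CAPG lies below 0 and GSN above it. EVL, at 56.4% GC, lies below all other members in both panels.

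A further list of 70 actin regulators outside the members (among them further nucleators, turnover and monomer factors, and capping, severing and crosslinking proteins) gave 64 tested genes in the ACTB table. Of these 64, 0 were called by edgeR for ACTB-mut against Actin KO, against 0.922% of all genes. In all, 12 of the 64 had an unadjusted p below 0.05, 10 of them lower, beside 10 of 56 members and 11.5% of all genes. Of the 64, 13 lay lower in each ACTB-mut library than in each Actin KO library (background 9.16%) and 2 higher (background 9.31%). In the other two comparisons the list had 1 call of 64 each, against 1.12% and 1.24% of all genes. For ACTB-WT against Actin KO the call was PALLD, higher, the gene of the crosslinker palladin, at 45.7, 34.3 and 61.7 CPM in ACTB-WT libraries and 23.9, 16.8 and 11.3 CPM in Actin KO libraries (log2 fold change 1.45 ± 0.33, edgeR adjusted p = 0.0438). For ACTB-mut against ACTB-WT it was DBN1, lower, the gene of drebrin, a side-binding protein, at 80.3, 86.0 and 71.8 CPM in ACTB-mut libraries and 126, 137 and 150 CPM in ACTB-WT libraries (-0.79 ± 0.15, edgeR adjusted p = 0.0177).

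The SETD3 table compared lines labelled as knockouts of SETD3, the enzyme that methylates actin, with their control. No member was called by edgeR in any of the 4 comparisons. The background was 0.0144% of genes for KO1 against CT, 0.0578% for KO2 against CT, 0.0433% for the mean of both lines against CT and 0.0289% for KO2 against KO1. The members with an unadjusted p below 0.05 numbered 4, 5, 4 and 4 of 58 in that order (6.9%, 8.62%, 6.9% and 6.9%). The shares of all genes were 5.75%, 4.95%, 5.68% and 4.84%. DESeq2 called 1 member, TMSB10, in KO2 against CT, and limma-voom called 0 in each comparison. The further list had 62 tested genes and 0 calls in each comparison.

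CTTN was higher in mean in both knockout lines: 109, 103 and 123 CPM in KO1 and 135, 101 and 98.4 CPM in KO2, against 62.9, 72.7 and 72.9 CPM in CT. All 6 knockout libraries lay above all 3 controls (log2 fold change of the mean 0.68 ± 0.19, adjusted p = 0.472). It was the 1 member of 58 so placed (background 1.60%), and without the 2 shallowest libraries its fold change was 0.64 (adjusted p = 0.511). In the other table, which was scaled separately, CTTN stood at 89.8 to 124.1 CPM in Actin KO libraries. It stood there at 76.7 to 112 CPM in ACTB-WT libraries and at 52.9 to 63.3 CPM in ACTB-mut libraries. Levels were not tested across the tables.

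GSN was the 1 member with all 6 knockout libraries below the controls (background 1.67%): 20.1, 11.4 and 11.7 CPM in KO1 and 22.6, 16.7 and 12.0 CPM in KO2, against 25.8, 30.1 and 27.2 CPM in CT. The log2 fold change of the mean was -0.82 ± 0.33 (adjusted p = 0.804), with -0.94 in KO1 and -0.71 in KO2. CAPG, a capping protein of the gelsolin family, stood at 104, 77.5 and 115 CPM in KO1 and 125, 89.0 and 90.4 CPM in KO2, against 56.2, 59.2 and 79.3 CPM in CT. The lowest KO1 library of CAPG lay below the highest control (mean of both lines 0.62 ± 0.22, adjusted p = 0.774).

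In KO1 alone, ABI2, a WAVE complex subunit, stood at 15.1, 20.4 and 30.9 CPM, against 13.3, 9.53 and 11.6 CPM in CT (0.94 ± 0.42, adjusted p = 0.846). SSH1 stood at 7.10, 16.9 and 10.9 CPM in KO1, against 20.9, 22.2 and 18.2 CPM in CT (-0.81 ± 0.49, adjusted p = 0.971). Neither pair overlapped; in all, 5 of 58 members lay higher in each KO1 library than in each CT library (background 6.47%) and 4 lower (background 6.73%).

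In KO2 alone, TMSB10 stood at 1469, 1098 and 1546 CPM, against 1877, 2799 and 2385 CPM in CT (-0.78 ± 0.18, edgeR adjusted p = 0.268; DESeq2 adjusted p = 0.0399). Its highest control and 1 of its knockout values come from the 2 libraries that stood apart, and without them the edgeR fold change was -0.68 (adjusted p = 0.506). WASF2 stood at 33.4, 40.1 and 36.3 CPM in KO2, against 53.1, 84.0 and 61.2 CPM in CT (-0.85 ± 0.28, adjusted p = 0.743). Without these 2 libraries the WASF2 fold change was -0.57. Of 58 members, 2 lay higher in each KO2 library than in each CT library (background 4.97%) and 6 lower (background 5.28%).

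The knockout lines also differed from each other without a call. BRK1 stood at 73.2, 90.9 and 93.3 CPM in KO2, against 50, 39.8 and 46.7 CPM in KO1 (0.92 ± 0.26, adjusted p = 0.689). ABI2 stood at 10.8, 12.7 and 11.3 CPM in KO2 and WASF2 at 33.4, 40.1 and 36.3 CPM, against 15.1, 20.4 and 30.9 CPM and 66.6, 42.2 and 67.3 CPM in KO1 (log2 fold changes -0.93 ± 0.42 and -0.68 ± 0.28). BRK1 was the 1 member higher in each KO2 library than in each KO1 library (background 6.16%), and 6 were lower (background 5.76%).

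**Figure D5:**
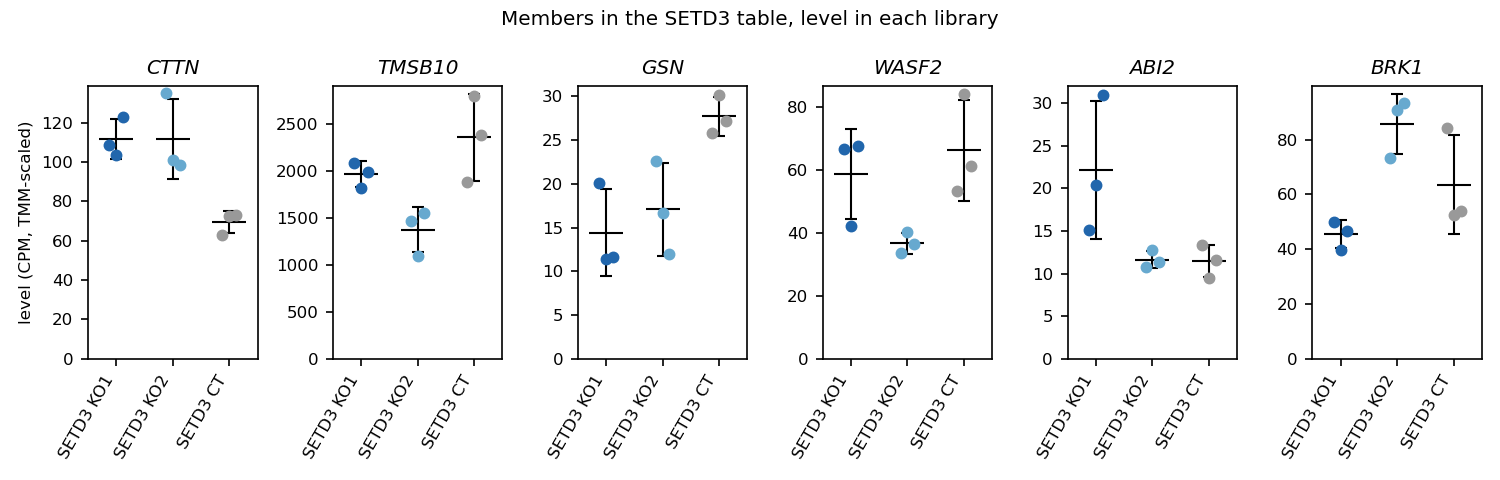
Level in CPM of 6 members in each library of the SETD3 table; dots are libraries and bars are the mean ± SD of 3 libraries. CTTN lies at 98.4 to 135 CPM in the 6 knockout libraries and at 62.9 to 72.9 CPM in the controls, and BRK1 at 73.2 to 93.3 CPM in KO2 and 39.8 to 50 CPM in KO1.

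The members called in the ACTB table were not called in the SETD3 table, where their log2 fold changes for the mean of both knockout lines were 0.66 ± 0.41 for EVL, 0.04 ± 0.22 for FSCN1, -0.29 ± 0.18 for FLNA, -0.17 ± 0.14 for EZR and, as given above, 0.68 ± 0.19 for CTTN. The difference between the tables was not tested. Set side by side in TPM, with no scaling common to the tables and no test, 0 of 56 members had all 9 libraries of the ACTB table above or below all 9 of the SETD3 table, against 0.0387% of 12918 genes above and 0.0697% below.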

How the data were processed

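Members and lists were chosen with earlier results of these data known. Per the submitters' processing notes, the tools were RSEM 1.2.28, Bowtie2, cutadapt 1.15 and Trim Galore 0.4.5, and the build was GRCh38. The annotation release, the strand setting and Bowtie2's version are not given in the sources used here, so reads of overlapping and antisense genes cannot be told apart. The deposited values are RSEM expected counts per gene, which split shared reads by estimate: 44 of the 59 members had a count that was not whole (tolerance 0.005) in at least 1 library. Named pseudogene rows of 17 members took up to 1.32% of a member's counts (TMSB4X).

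Expected counts were rounded, and the 3 groups of a table were fitted together, separately from the other table, by edgeR 4.0.16 (R 4.3.3; TMM scaling, filterByExpr, robust quasi-likelihood F test), and p-values were adjusted over all tested genes. A standard error is the absolute log2 fold change over the square root of its F statistic. CPM values are TMM-scaled. TPM used 1 length per gene, from GENCODE 29 principal transcripts. Alternatives were edgeR's RLE scaling, DESeq2 1.42.0, limma-voom 3.58.1, no filter, GC and length offsets (lowess, span 0.3), a replicate block, leaving out each library and, added after seeing the data, leaving out the 2 shallowest SETD3 libraries. The script was tested on simulated data. Called members, and in each comparison the 3 with the largest fold change at 20 CPM or more in the higher group, were given by library, with the highest and lowest member of each role. ARPC1B, ARPC5L, WASF2 and CFL1 in the ACTB table were added after their values were seen. Figures were drawn with Python 3.11.15, pandas 2.3.3 and matplotlib 3.10.9.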

Additional observations from a re-analysis of the deposited data

Results flagged for a closer look

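The fold changes of ACTB-mut and of ACTB-WT, each taken against the Actin KO libraries they share, differed by the direct test between the constructs in 4 members. The difference was -2.58 on the log2 scale for EVL (edgeR adjusted p = 0.00374), -0.84 for FSCN1 (edgeR adjusted p = 0.00143), -0.71 for FLNA (edgeR adjusted p = 0.0309) and 0.66 for EZR (edgeR adjusted p = 0.0215). In each gene all 3 ACTB-mut libraries lay on one side of all 3 ACTB-WT libraries. FLNA was not called with GC and length offsets, EZR was not called with the replicate block, and neither was called with both. FLNA and EZR were each called in 1 of 6 fits that left out 1 library, and EVL and FSCN1 in all 6.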

How the results depend on the processing

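Genes called for ACTB-mut against ACTB-WT numbered 172, and 446 by DESeq2, 402 without a filter and 60 to 129 without 1 library. For ACTB-mut against Actin KO they numbered 128, and 365 by DESeq2, 195 by limma-voom, 371 without a filter and 34 to 77 without 1 library. For ACTB-WT against Actin KO they numbered 155, and 358 by DESeq2, 320 without a filter and 79 to 106 without 1 library. For the mean of both SETD3 lines they numbered 6, and 92 by DESeq2, 18 with GC and length offsets, 85 without a filter and 0 to 7 without 1 library. KO1 against CT had 2, and 65, 12, 58 and 0 to 4 under the same settings, and 10 without the 2 shallowest libraries. KO2 against CT had 8, and 90, 29, 68 and 3 to 7. KO2 against KO1 had 4, and 56, 19, 58 and 3 to 5, with 9 by limma-voom and 10 without the 2 shallowest libraries. Members called for ACTB-mut against Actin KO numbered 4, and 7 by DESeq2, 1 with GC and length offsets and 0 to 3 without 1 library. Those for ACTB-mut against ACTB-WT numbered 4, and 2 to 3 without 1 library. DESeq2 and the fit without a filter called 1 member each for ACTB-WT against Actin KO and for KO2 against CT, where the count was 0. Leaving out 1 library gave 0 members in those comparisons.

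Whether replicate numbers pair the samples was not settled. Correlations of same-numbered libraries were -0.581 to 0.248 among SETD3 libraries and -0.165 to 0.095 among ACTB libraries. Those of differently numbered libraries were -0.545 to 0.577 and -0.098 to 0.18. Between Actin KO and ACTB-mut libraries the same-numbered values were 0.095, 0.04 and 0.079, against -0.098 to 0.025 for the others. With the replicate block the genes called numbered 83, 85, 89, 0, 0, 1 and 3 in the order above, and with the block and GC and length offsets 71 and 35 for the first 2. Members called with the block numbered 2 for ACTB-mut against Actin KO and 3 for ACTB-mut against ACTB-WT, and with the block and these offsets 0 and 2. Of 346 alternative values of the 25 fold changes named by rule, 301 kept direction and call, 41 lost the call, 4 gained it and 0 reversed. Only a fold change called in the main edgeR fit can lose a call, so all 41 losses fall among the called ones. Many of the 301 were values without a call that stayed without one. The cause of the differences between settings was not tested. The ACTB-mut values of EVL rest on 111 counts in all.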
